A study of Mus musculus with 8 samples.

Results

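The carboxylesterases are a family of serine hydrolases, measured here by RNA sequencing in mouse intestinal epithelial cells. The 10 genes described are Ces1d, Ces1e, Ces1f, Ces1g, Ces2a, Ces2b, Ces2c, Ces2e, Ces2g and Ces3a, out of 54139 genes in the deposited tables. They were chosen by name, because Ces1f had been found lower in the knockout, so the knockout values of Ces1f are a description and not a test. The other 10 carboxylesterase loci of the table are given beside them. The control group (WT, 4 libraries) has the genotype Villin-Cre, and the knockout group (cKO, 4 libraries) the genotype Rictor Flox; Villin-Cre. The Villin promoter drives Cre in the intestinal epithelium, so both groups carry the recombinase and only cKO the floxed gene. Rictor is an essential subunit of mTOR complex 2, which phosphorylates Akt. Segment, age, sex and the way the cells were isolated were not stated in the labels used here. Whether each library is a separate mouse is also unstated, so a p-value here reflects only the spread among these libraries, which may in part be technical.

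Carboxylesterases cut ester bonds in the lumen of the endoplasmic reticulum, in drugs and other foreign compounds and in the body's own lipids. Several members hydrolyse triglyceride or other acylglycerols, and carboxylesterases of the second subfamily are the main ones of the human small intestine. In the mouse the genes have multiplied into tandem arrays, and in this table all 20 loci lie on chromosome 8 (GRCm38 coordinates of the table). The array from Ces1a to Ces5a holds the Ces1 genes on the minus strand, and a second array holds Ces2, Ces3 and Ces4a on the plus strand. Nuclear receptors that sense foreign compounds, bile acids and fatty acids are among their known regulators.

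Because copies this similar can exchange reads, their sequences were compared first. Coding sequences of the 8 Ces1 loci were 73.8% to 91.1% identical to each other, those of the 7 Ces2 loci with a coding sequence 76.4% to 92.1%, and a Ces1 and a Ces2 sequence only 62.3% to 67.5%. Ces1f was among the more distant copies, at 73.8% to 79.8% to the other Ces1 loci. Its longest run of bases found unchanged in another Ces coding sequence was 59 bases, shared with Ces1g and reaching across the junction of exons 13 and 14. The 90 coding bases around that run (coding bases 1452 to 1541 of Ces1f, chr8:93256574-93256926, minus strand, intron left out) are shown because they hold that run, the longest shared by Ces1f with any other carboxylesterase, and capitals mark bases that differ from Ces1f.
Ces1f: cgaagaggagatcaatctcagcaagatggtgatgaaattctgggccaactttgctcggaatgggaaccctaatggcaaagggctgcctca
Ces1e: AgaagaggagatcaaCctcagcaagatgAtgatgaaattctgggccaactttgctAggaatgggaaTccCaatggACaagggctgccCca
Ces1d: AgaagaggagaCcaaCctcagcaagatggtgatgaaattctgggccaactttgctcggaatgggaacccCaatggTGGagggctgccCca
Ces1g: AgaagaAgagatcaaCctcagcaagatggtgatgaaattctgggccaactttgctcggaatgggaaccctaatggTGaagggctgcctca
Ces1c: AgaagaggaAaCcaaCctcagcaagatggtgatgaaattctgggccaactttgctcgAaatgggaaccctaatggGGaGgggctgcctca
Ces1g differed from Ces1f at 5 of these positions, Ces1d and Ces1c at 8 each and Ces1e at 9. The longest run shared with Ces1e, 42 bases, lies elsewhere, at coding bases 631 to 672 of Ces1f in exon 5.

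Windows were taken from 1 transcript per gene, the one with the longest coding sequence, and looked for in all GENCODE M21 transcripts. For Ces1f, 1.6% of the 50-base windows also occurred in a transcript of another gene (Gm45910, Ces1g or Ces1d), and 0 of its 1827 windows of 100 bases did. That transcript has 1926 bases and the deposited gene length of Ces1f is 3285, so bases outside the transcript were not searched. The same holds for other members, among them Ces1d (2004 and 2369 bases) and Ces2g (2859 and 3574 bases). Ces1d, Ces1e and Ces1g likewise had 0 shared windows of 100 bases, and at 50 bases 1.28%, 3.21% and 1.67%. Gm45910 was also among the genes sharing 50-base windows with Ces1e and Ces1g. Ces2e and Ces2g also had 0 shared windows of 100 bases. The copies with more sharing were Ces2c (42.2% at 50 bases and 16% at 100, mostly with the pseudogene Ces2d-ps and the loci Gm8798 and Gm6831), Ces2a (22.2% and 10.7%, with Gm7208) and Ces3a (30.9% and 9.09%, with Ces3b). Neither the read length nor the treatment of reads with several matches was stated. Values of Ces2a, Ces2b, Ces2c, Ces2d-ps, Ces1b, Ces1c, Ces3a and Ces3b are therefore uncertain.

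**Figure D1:**
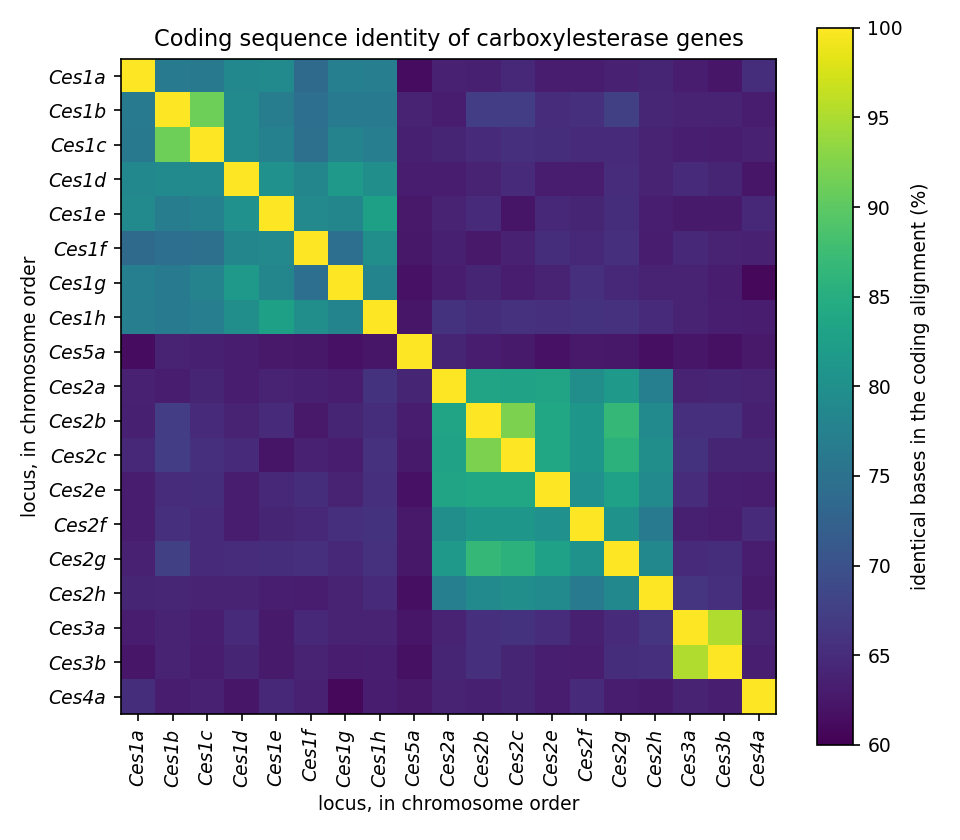
Percentage of identical bases in pairwise global alignments of the coding sequences of 19 carboxylesterase loci, in chromosome order on both axes; the colour scale starts at 60%. The Ces1 and Ces2 genes form separate blocks, with Ces1b and Ces1c (91.1%), Ces2b and Ces2c (92.1%) and Ces3a and Ces3b (95.3%) the closest pairs.

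The 4 WT libraries held between 15982538 and 18708335 counts and the 4 cKO libraries between 15110451 and 18351748. Levels are given as CPM, counts scaled to a common library total. Rictor, the targeted gene, had 48.2 ± 7.51 CPM (WT) and 32.8 ± 9.24 CPM (cKO; SD, n = 4 each) without overlap and without passing the edgeR test (adjusted p = 0.921), so its transcript was still counted in cKO. Libraries 3 of both groups had the lowest weights of their group in a fit with sample quality weights. Across the 14701 genes tested with the quasi-likelihood test of edgeR, 2 genes (0.0136%) passed the adjusted threshold of 0.05, Popdc3 (higher) and Ces1f (lower, 0.0068%), and 573 (3.9%) had p under 0.05 before adjustment. The groups did not overlap for 472 genes (3.21%), of which 265 (1.8%) were lower in cKO. All 10 members passed the filter on low counts, as did 4 of the other 10 loci.

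The intestinal epithelium expressed chiefly the Ces2 genes. On the scale of FPKM, which corrects for gene length, Ces2e stood first at 274 ± 58.5 (SD over 8 libraries) and was the gene of rank 157 in the whole table. Ces2e, named a pyrethroid hydrolase in the table, supplied 56.0% ± 2.58 of the summed FPKM of all 20 loci in WT and 58.3% ± 3.47 in cKO (SD, n = 4 each). Its lowest library (211 FPKM) lay above the highest library of any other carboxylesterase. Next came Ces2a, also named a pyrethroid hydrolase, at 70.9 ± 28.4, and Ces2c, an acylcarnitine hydrolase, at 57.8 ± 18.5. Ces2g (28.7 ± 3.62), Ces1f (25.0 ± 10.9) and Ces1e (13.8 ± 3.24) followed. These means pool both genotypes, and the place of Ces1f in the order turned with genotype. In WT its FPKM (32.5 to 38.0) lay above that of Ces2g (22.5 to 30.0) and overlapped those of Ces2a and Ces2c. In cKO the FPKM of Ces1f (11.2 to 18.8) lay below that of Ces2g (28.5 to 33.2) and overlapped that of Ces1e (8.67 to 13.5). Ces2a and Ces2c overlapped within both groups, and Ces2c lay above Ces2g in both.

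Lower still were Ces1d (4.28 ± 1.46 FPKM), whose highest library lay below the lowest of Ces1e, then Ces1g (1.32 ± 0.728), Ces2b (1.27 ± 0.482) and Ces1c (1.08 ± 0.859). Ces3a, the single Ces3 member, was close to absent at 0.353 ± 0.104 FPKM. Of the other loci, Ces2d-ps, Ces2h, Ces1b and Ces2f had means from 0.237 to 0.701 FPKM and Ces3b 0.0429. Ces1a, Ces1h, Ces4a and Ces5a had 0 counts in every library. A count of 0 allows up to 3 counts, or 0.159 to 0.193 CPM by library, which covers counting error only.

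Ces1f (ENSMUSG00000031725, chr8:93256236-93279747, minus strand, protein coding), the gene for which the family was chosen, had 108, 112, 126 and 117 CPM in WT libraries 1 to 4. It had 51.2, 62.9, 37.0 and 49.4 CPM in cKO libraries 1 to 4. Every cKO library lay far below every WT library, and the highest cKO library was library 2. The WT mean was 116 ± 7.87 CPM and the cKO mean 50.2 ± 10.6 CPM (SD, n = 4 each), a log2 fold change of -1.21 ± 0.15 (SE), or 0.434 of WT. Its share of the summed carboxylesterase FPKM was 7.96% ± 1.56 in WT and 3.04% ± 0.788 in cKO (SD, n = 4 each). It was 1 of the 2 genes called across the transcriptome, with an edgeR adjusted p of 0.0358, which is what chose it. Leaving out any 1 of WT libraries 1 to 4 or cKO libraries 1 and 4 ended the call (edgeR adjusted p from 0.106 to 0.225), while its log2 fold change kept between -1.33 and -1.04 in all 19 alternative fits. In bulk RNA fewer cells of a type and less RNA per cell cannot be told apart, here and for every gene that follows.

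Ces1e (ENSMUSG00000061959, chr8:93201218-93229619), also known as egasyn because it holds beta-glucuronidase in the endoplasmic reticulum, is the nearest carboxylesterase neighbour of Ces1f on the side of Ces1d. It had 33.6, 31.1, 39.4 and 39.4 CPM in WT and 22.7, 29.1, 19.2 and 29.7 CPM in cKO, in the order of the library numbers. The groups did not overlap, although cKO library 4 came close to WT library 2. The log2 fold change was -0.51 ± 0.16 (SE), with an edgeR adjusted p = 0.921 over all genes (0.00751 unadjusted), so Ces1e did not pass. With sample quality weights the log2 fold change of Ces1e was -0.29, and without libraries 3 of both groups it was -0.35.

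Ces1d (ENSMUSG00000056973, chr8:93166068-93197838), a triglyceride hydrolase associated with lipid droplets and lipoprotein assembly in liver, had 11.3, 9.23, 11.9 and 16.8 CPM in WT. In cKO it had 4.21, 9.69, 9.61 and 9.37 CPM. The groups overlapped only through WT library 2, which lay below cKO libraries 2, 3 and 4. This is a log2 difference of -0.58 ± 0.27 (SE, edgeR adjusted p = 0.921), and -0.36 without cKO library 1, its lowest.

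Ces1g (ENSMUSG00000057074, chr8:93302369-93337308), an esterase that affects lipid metabolism in liver, had 2.07, 2.93, 5.01 and 6.54 CPM in WT and 0.948, 2.84, 2.75 and 2.50 CPM in cKO. WT library 1 lay below cKO libraries 2, 3 and 4, while the other WT libraries lay above every cKO library, library 2 only just. The estimate was -0.87 ± 0.41 on the log2 scale (± SE; adjusted p = 0.921 by edgeR), -0.55 without WT library 4 and -0.44 with sample quality weights. Ces1c, the esterase of mouse plasma and not one of the 10 members, had 2.07, 2.10, 4.02 and 6.66 CPM in WT and 0.652, 2.95, 1.18 and 0.706 CPM in cKO. Its estimate was -1.42 ± 0.54 on the log2 scale (± SE; adjusted p = 0.921 by edgeR), -2.10 without cKO library 2, its highest cKO library, and -0.98 without WT library 4. Ces1c shares 17% of its 50-base windows with other genes, chiefly Ces1b. Ces1b had 9, 9, 19 and 12 counts in WT and 0, 22, 10 and 6 in cKO, too few to be tested.

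**Figure D2:**
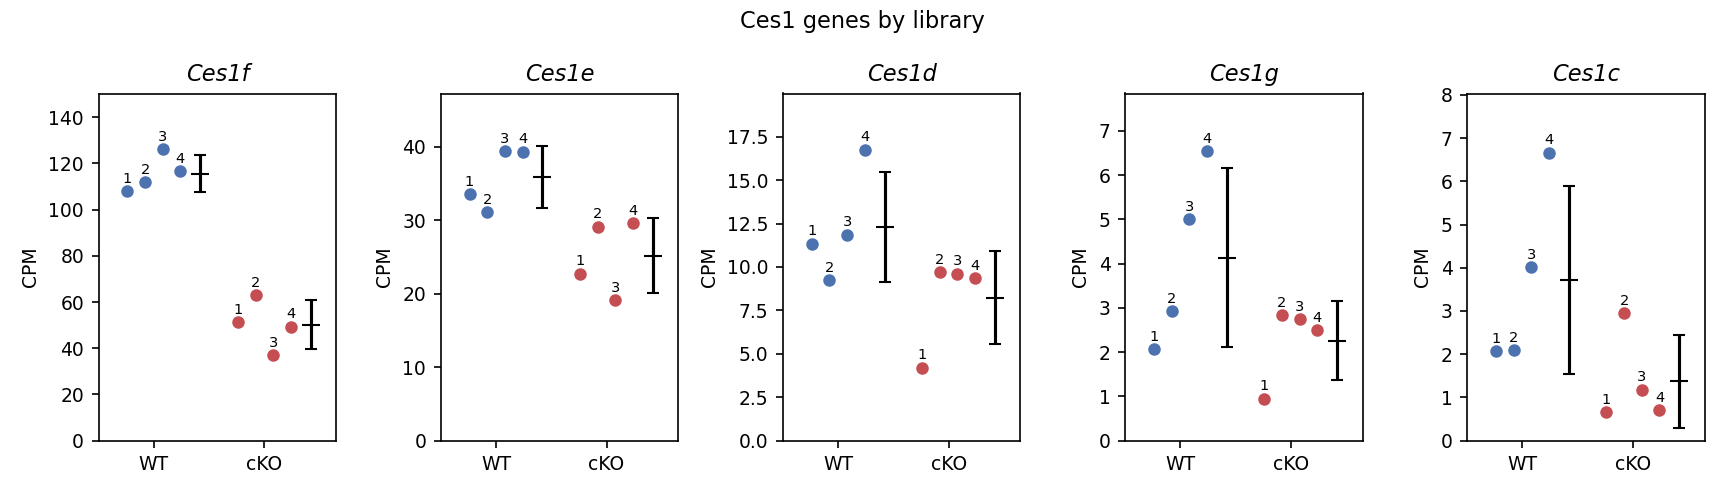
Levels (CPM on TMM-scaled totals) of the 5 tested Ces1 genes; each point is a library, numbered 1 to 4 within its group, and the black bar gives the mean ± SD. The cKO libraries lie below all WT libraries for Ces1f and Ces1e and overlap them for Ces1d, Ces1g and Ces1c.

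The 4 tested Ces1 loci other than Ces1f all had lower point estimates in cKO, where 49.5% of all tested genes did, and 0 of them passed. Ces1f, which passed, was chosen for its fall and is left out of this count. Apart from Ces1f the 4 loci ran from -1.42 to -0.51 with a median log2 fold change of -0.72, beside 0.0022 over all genes tested. Summed over the 8 Ces1 loci, a value that does not depend on how counted reads were divided among the Ces1 copies, WT libraries 1 to 4 had 157, 158, 188 and 187 CPM. The cKO libraries had 79.8, 109, 70.3 and 92.0 CPM, so the groups stayed apart. The sum in cKO was 50.9% of WT. With Ces1f taken out of the sum, the values were 49.5, 45.9, 61.5 and 70.1 CPM (WT) and 28.6, 45.9, 33.3 and 42.6 CPM (cKO), 66.2% of WT, and WT library 2 and cKO library 2 coincided. No test is given for these sums, since the genes were chosen with their values known.

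Ratios within single libraries need no scaling between libraries. The ratio of Ces1f counts to Ces1e counts was 3.22, 3.60, 3.20 and 2.96 in WT and 2.25, 2.16, 1.93 and 1.67 in cKO. Ces1f was lower relative to Ces1e in every cKO library, which the choice of Ces1f for its fall favours, so this is a description. Relative to Ces1d the groups overlapped: the ratio of Ces1f to Ces1d counts was 9.51, 12.1, 10.6 and 6.96 in WT and 12.2, 6.49, 3.85 and 5.27 in cKO, with cKO library 1 the highest of all 8. The ratio of Ces1e to Ces1d counts also overlapped, at 2.35 to 3.37 (WT) and 1.99 to 5.41 (cKO).

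Ces2e (ENSMUSG00000031886, chr8:104926260-104934672, plus strand), the most abundant of the family, had 575, 600, 990 and 617 CPM in WT and 939, 696, 857 and 721 CPM in cKO. WT library 3 was the highest of all 8, and the other WT libraries lay below every cKO library. The estimate was 0.21 ± 0.19 on the log2 scale (± SE; adjusted p = 0.921 by edgeR) with all libraries, 0.43 without WT library 3, 0.13 without WT library 1 and 0.12 without cKO library 1. Ces2a (ENSMUSG00000055730, chr8:104734003-104741634), which also acts on acylglycerols, likewise had WT library 3 highest and the other WT libraries below every cKO library. It had 96.3, 83.5, 288 and 124 CPM in WT and 202, 213, 190 and 157 CPM in cKO. Its estimate was 0.37 ± 0.37 on the log2 scale (± SE; adjusted p = 0.921 by edgeR), 0.21 and 0.17 without WT library 1 or 2, 0.91 without WT library 3 and 0.81 with sample quality weights.

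Ces2c (ENSMUSG00000061825, chr8:104847068-104854483) had 74.8, 99.2, 202 and 109 CPM in WT and 176, 138, 164 and 113 CPM in cKO, again with WT library 3 on top. Its estimate was 0.29 ± 0.28 on the log2 scale (± SE; adjusted p = 0.921 by edgeR), 0.65 without that library and 0.12 without WT library 1. Ces2g (ENSMUSG00000031877, chr8:104961718-104969537), a less studied copy, was the steadiest, at 88.3, 81.2, 107 and 109 CPM in WT and 103, 121, 116 and 107 CPM in cKO. Its estimate was 0.21 ± 0.12 on the log2 scale (± SE; adjusted p = 0.921 by edgeR), and 0.14 without WT library 2. Ces2b (ENSMUSG00000050097, chr8:104831572-104840093) stood at 4.25 ± 2.46 and 4.52 ± 0.599 CPM, and Ces3a (ENSMUSG00000069922, chr8:105048601-105058413) at 0.921 ± 0.256 and 0.957 ± 0.338 CPM (WT and cKO, SD, n = 4 each). The sign of the small log2 fold changes of Ces2b (0.096) and Ces3a (0.060) turned when single libraries were left out. Ces2f, Ces2h and Ces2d-ps, at means of 1.02 to 1.40 CPM, had log2 fold changes of 0.39, -0.15 and -0.09, and none passed; without 1 library Ces2f ran from 0.17 (cKO library 4) to 0.65 (WT library 3).

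**Figure D3:**
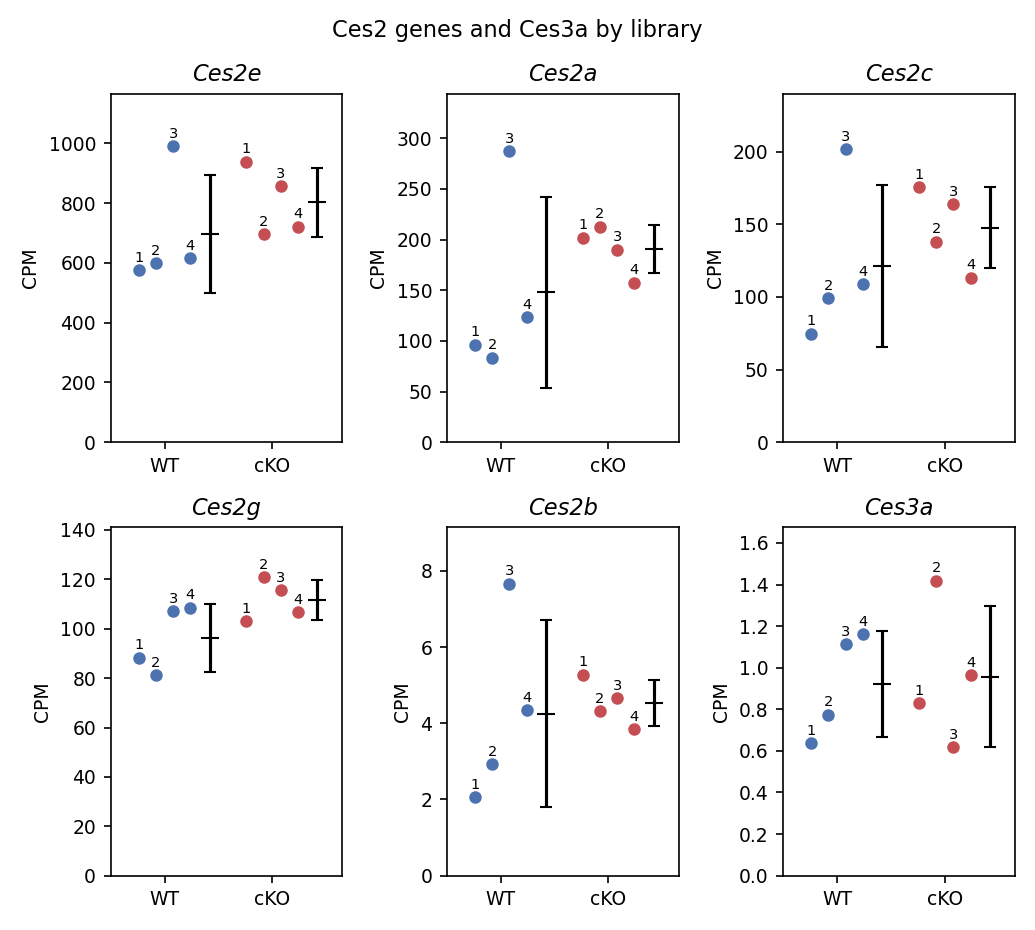
Levels (CPM on TMM-scaled totals) of the 5 Ces2 members and Ces3a; points are libraries, numbered within their group, and black bars give the mean ± SD. WT library 3 is the highest library for Ces2e, Ces2a, Ces2b and Ces2c, and the groups overlap in every panel.

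Point estimates of the 8 tested Ces2 loci were higher in cKO for 6 and lower for 2, with a median log2 fold change of 0.21, and 0 passed with edgeR (0 had p under 0.05 before adjustment). The sum over these 8 loci was 839, 870, 1600 and 966 CPM in WT and 1429, 1174, 1335 and 1106 CPM in cKO, a log2 ratio of 0.24 that was 0.50 without WT library 3. Whether the Ces1 and Ces2 genes differed in response was not tested. Counts of the Ces1 loci came to 18.8%, 18.1%, 11.7% and 19.3% of those of the Ces2 loci in WT and to 5.58%, 9.27%, 5.26% and 8.32% in cKO, without overlap, and Ces1f supplies most of the Ces1 counts. In summed FPKM the Ces1 loci made up 13.6% ± 2.65 of the family in WT and 6.41% ± 1.72 in cKO (SD, n = 4 each).

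**Figure D4:**
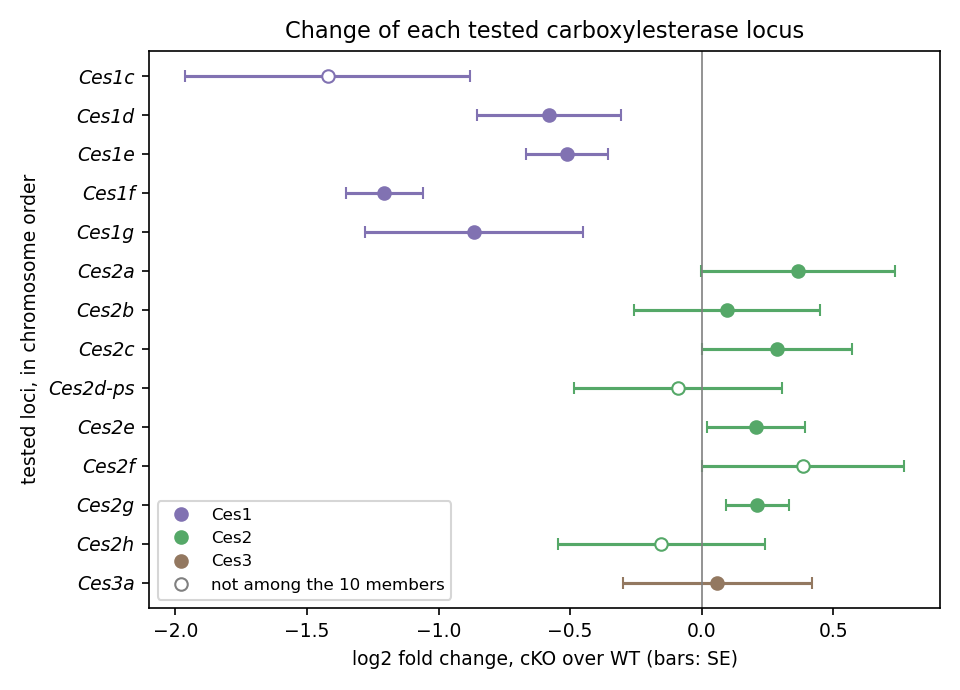
Log2 fold change of cKO over WT for the 14 tested carboxylesterase loci in chromosome order, with bars of 1 SE; open symbols are loci that are not among the 10 members. The 5 Ces1 loci lie between -1.42 and -0.51 and the 8 Ces2 loci between -0.15 and 0.39.

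The summed RNA of enterocyte markers varied between the libraries. Summed, 20 enterocyte markers stood between 15168 and 34331 CPM among WT libraries and between 17340 and 26344 CPM among cKO libraries, with no marker at 0. The 3 libraries highest in the Ces2 sum, WT library 3 and cKO libraries 1 and 3, were also the 3 highest in enterocyte markers, at 34331, 26344 and 21764 CPM. Below them the orders differed. In cKO library 2 the markers came to 17340 CPM and the Ces2 sum to 1174 CPM, against 17959 and 870 CPM in WT library 2. Relative to the markers the Ces2 counts spanned a narrower range, 4.66% to 5.79% in WT and 5.42% to 6.77% in cKO. The Ces1 sum did not follow the order of the markers. WT library 3, with the most enterocyte markers, and WT library 4, with 16680 CPM of them, had almost the same Ces1 sum. Relative to the markers the Ces1 counts were 0.547% to 1.12% in WT and 0.303% to 0.628% in cKO, where WT library 3 and cKO library 2 overlapped. The part of enterocyte content in these values was not tested.

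**Figure D5:**
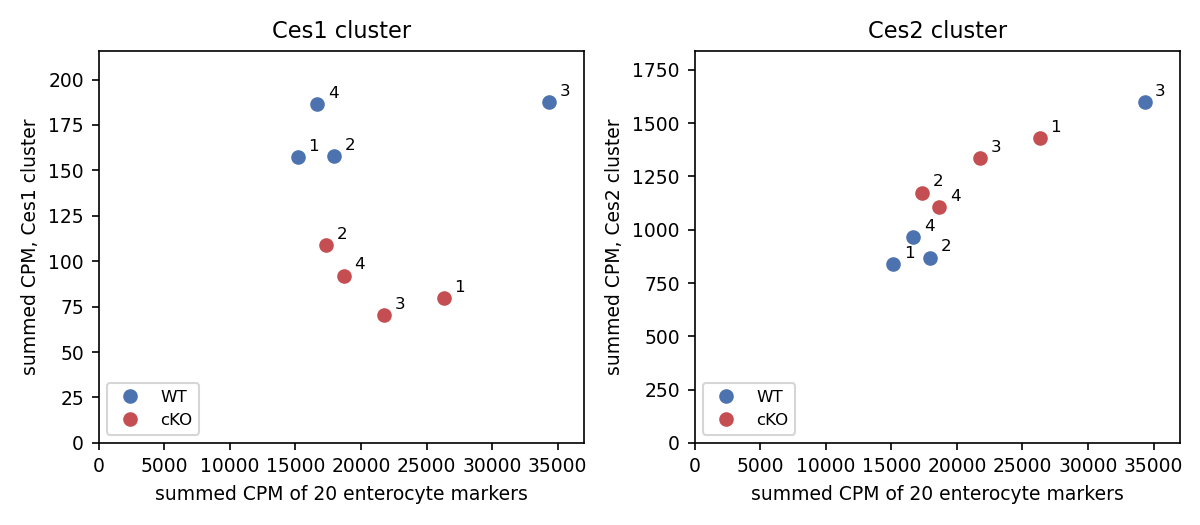
Summed CPM of the Ces1 loci (left) and of the Ces2 loci (right) against the summed CPM of 20 enterocyte markers, 1 point per library, numbered within its group. The Ces2 sum is highest in WT library 3 and cKO libraries 1 and 3, the libraries with the most enterocyte markers. The Ces1 sum separates WT (157 to 188 CPM) from cKO (70.3 to 109 CPM). Most of it is Ces1f, which was chosen for its fall, and without Ces1f the groups overlap.

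Cells of other origin that express Ces1 genes were checked by their markers. Of 6 adipocyte markers Adipoq, Lep and Cfd were at 0 in every library and the summed level was at most 0.118 CPM. Of 8 hepatocyte markers 5 had means under 1 CPM, and albumin (Alb) spanned 0.124 to 1.11 CPM (WT) and 0.112 to 0.650 CPM (cKO). Ttr of the same list was higher, at 4.92 to 9.29 CPM (WT) and 2.84 to 8.80 CPM (cKO). The summed hepatocyte list, 2368 to 3290 CPM in WT and 2244 to 2692 CPM in cKO, includes Cps1, which the small intestine also expresses. Macrophage markers, 6 of 8 under 1 CPM and none at 0 in every library, summed to 3.65 to 5.44 CPM (WT) and 5.78 to 11.1 CPM (cKO), higher in every cKO library. The 10 fibroblast and muscle markers, all under 1 CPM, were also higher in every cKO library, at 0.954 to 2.04 CPM (WT) and 2.05 to 2.78 CPM (cKO). T cell markers summed to 184 to 603 CPM in WT and 233 to 718 CPM in cKO. The 8 ileum markers summed to 303 to 751 CPM (WT) and 344 to 449 CPM (cKO), with Fabp6 at most 4.48 CPM. Other genes of that list made up nearly all of the sum. The 8 colon markers summed to 920 to 1108 CPM (WT) and 793 to 1337 CPM (cKO), with Car1 at 0. Aqp8 spanned 1.48 to 6.98 CPM (WT) and 2.01 to 5.44 CPM (cKO). Large terms of that sum were Muc3 (means of 394 CPM in WT and 382 CPM in cKO) and Prdx6 (340 and 355 CPM). Lactase (Lct) spanned 303 to 1531 CPM (WT) and 453 to 653 CPM (cKO). Markers of the proximal small intestine summed to 1520 to 3776 CPM in WT and 1856 to 2440 CPM in cKO. The part of macrophages, fibroblasts, T cells and segment in the Ces1 values was not tested.

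Genes beside the arrays were compared as neighbours on the chromosome. Beyond the Ces1 array, Fto and Rpgrip1l had log2 fold changes of 0.23 ± 0.14 and -0.22 ± 0.20 (SE), and Gnao1 0.51 ± 0.21. Gnao1, the nearest tested gene, lies 274136 bases from the array, and its point estimate was higher in cKO. Beside the second array, Cbfb, D230025D16Rik and Fam96b were between -0.034 and -0.022, and Gm5159, which shares short stretches with Ces2e and Ces2g, was at 0.57 ± 0.33. None of these 7 genes passed with edgeR (adjusted p from 0.921 to 0.978).

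Promoters were looked up because the tested Ces1 loci, of which Ces1f was chosen for its fall, had lower point estimates. RefSeq windows (GRCm38.p6) were found for 6 of the 10 members, Ces1e, Ces1g, Ces2a, Ces2c, Ces2e and Ces2g. The 250 bases before the start of Ces1e (chr8:93229620-93229869, minus strand) and of Ces1g (chr8:93337210-93337459, minus strand) are the only ones of Ces1 members and are printed 5′ to 3′. Capitals mark the longest run of letters common to both, 11 bases. It was in 8 of 32851 promoter windows (0.0244%) on either strand, the windows of Ces1e and Ces1g included. The run was picked for being shared by both, after the expression values were seen, so its rarity is a description and not a test. The window of Ces1c, a tested Ces1 locus that is not a member, lacked this run. The longest run common to Ces1e, Ces1g and Ces1c was 8 bases, TTATGTAA, found in 269 windows (0.819%). It was also in the window of Ces1a, which had 0 counts in every library, and in a window of Ces1b, which was not tested. So it was not particular to the loci with lower estimates. Ces1b and Ces1c shared a run of 58 bases, and Ces1f had no window.
Ces1e: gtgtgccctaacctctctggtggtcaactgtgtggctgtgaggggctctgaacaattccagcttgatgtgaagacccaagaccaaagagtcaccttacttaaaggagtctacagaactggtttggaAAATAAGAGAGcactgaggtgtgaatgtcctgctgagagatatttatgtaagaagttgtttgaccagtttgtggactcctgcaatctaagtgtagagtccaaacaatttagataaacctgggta
Ces1g: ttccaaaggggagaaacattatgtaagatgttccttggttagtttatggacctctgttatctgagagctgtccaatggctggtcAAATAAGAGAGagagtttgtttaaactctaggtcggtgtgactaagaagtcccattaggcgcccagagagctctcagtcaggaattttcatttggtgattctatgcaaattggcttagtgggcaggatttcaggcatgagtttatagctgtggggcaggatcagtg
The run in capitals lies at bases -124 to -114 of Ces1e and -166 to -156 of Ces1g, counted from the start site. Searched on both strands, TATAAA was found in Ces1g on the opposite strand (bases -26 to -21) and not in Ces1e, and 12.4% of all windows hold it. The FoxO core GTAAACA (3.17% of all windows), the HNF4 sequence CAAAGTCCA (0.384%) and the NRF2 sequence TGACNNNGC (10.2%) were in none of the 6 windows. The nuclear receptor core AGGTCA (14%) was in the window of Ces2a alone. No motif overlapped another in these 6 windows.

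Genes listed as known or possible regulators of carboxylesterase transcription were read next. None of these 21 genes, among them the receptors PXR (Nr1i2), CAR (Nr1i3) and FXR (Nr1h4), passed with edgeR. Point estimates were higher for 12 and lower for 9, with a median of 0.0066. Ppara, the fatty acid receptor, had the smallest p, with 57.5 ± 6.32 CPM (WT) and 46.3 ± 9.89 CPM (cKO; SD, n = 4 each) and a log2 difference of -0.31 ± 0.15. The glucocorticoid receptor gene Nr3c1 followed at -0.28 ± 0.16, with cKO library 3 at 132 CPM and the other cKO libraries between 204 and 219 CPM. Of 21 tested target genes of PXR and CAR, 7 were higher and 14 lower as point estimates, with a median of -0.17, and 0 passed with edgeR. Aldh1a1, a retinaldehyde dehydrogenase, spanned 90.6 to 292 CPM (WT) and 22.4 to 91.0 CPM (cKO), a log2 difference of -1.35 ± 0.50, and overlapped narrowly. The scarce Cyp3a44 stood at 0.291 ± 0.431 and 0.737 ± 0.280 CPM.

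Other enzymes of ester and lipid breakdown did not pass either. Of 23 tested hydrolases and lipid droplet proteins, 12 were higher and 11 lower, with a median of 0.037. Naaa, a lysosomal amidase of fatty acid ethanolamides, had 38.4, 41.3, 45.5 and 43.7 CPM in WT and 33.1, 32.8, 30.4 and 32.7 CPM in cKO. Its groups did not overlap, and the estimate was -0.39 ± 0.10 on the log2 scale (± SE; adjusted p = 0.762 by edgeR, and 0.00254 before adjustment). Faah, the amide hydrolase of the same class of lipids, had 189 ± 18.4 CPM (WT) and 227 ± 21.4 CPM (cKO), a log2 difference of 0.26 ± 0.11. Among 26 tested genes of triglyceride synthesis and chylomicron assembly 15 were higher and 11 lower, with a median of 0.023. The smallest p there belonged to Acat2 (0.27 ± 0.15) and Gpat4 (0.16 ± 0.13).

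The genes whose course over the 8 libraries lay nearest to Ces1f, by root mean square difference of centred log2 CPM among genes of at least 5 CPM, were AI427809, D130043K22Rik, Sh3rf2, Pik3r3 and Reps2. Their distances were 0.25, 0.29, 0.30, 0.30 and 0.32 on the log2 scale. Pik3r3 is a regulatory subunit of phosphoinositide 3-kinase, Reps2 an endocytic adaptor, Sh3rf2 a ring finger protein and AI427809 a long noncoding RNA. Each had all cKO libraries below all WT libraries, which the choice by likeness favours, with log2 fold changes from -1.03 to -0.66. Among the carboxylesterases Ces1e was nearest, at 0.38, with 18 of 10613 other genes as near or nearer, then Ces1d at 0.56 with 1675. Ces3a came next at 0.663 with 4682, ahead of Ces1g at 0.665 with 4770 and Ces1c at 0.685 with 5516. All these distances include the fall between the groups for which Ces1f was chosen, so they are a description. Ces2a was farthest, with 10372 of 10613 nearer.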

How the data were processed

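RNA of 8 libraries (4 WT, 4 cKO) was aligned by the authors with Hisat2 followed by Stringtie, per the labels' design text; versions, build, counting program and strand were not stated. The authors deposited whole-number read counts per gene without normalization, and FPKM for the same 54139 genes. The deposited FPKM equal counts over gene length and over a total that was 1.01 to 1.02 times the TMM-scaled total, so they add no separate measurement. Of the gene identifiers, 53620 are in GENCODE M21 (GRCm38), 97.1% with identical coordinates, all 20 carboxylesterase loci included. Every pair of libraries differed by more than sampling noise (chi-square per degree of freedom at least 10.75).

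Counts were tested over all genes with the quasi-likelihood test of edgeR 4.0.16 (R 4.3.3, robust, TMM factors, default filter, genotype only) and Benjamini-Hochberg adjustment at 0.05, after a check on simulated data. SE is the log2 fold change over the root of F. CPM use TMM-scaled totals. Alternatives used DESeq2 1.42.0, limma 3.58.1 on log2(FPKM + 0.1) and log2(FPKM + 1), voom weights, other factors and filters, left-out libraries and the replicate number as a block. Coding alignments were made with Biopython 1.88 on the transcript with the longest coding sequence. Members and lists were chosen with earlier results of these data known. The genes named are all carboxylesterase loci, the 2 genes with the smallest p of each other list, Rictor, the 2 nearest tested genes on each side of each array (1 of them is not reported here) and the 5 nearest profiles to Ces1f.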

Additional observations from a re-analysis of the deposited data

Results flagged for a closer look

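Single libraries stood apart from their group in 7 of 80 sets of 4 values, where chance gives about 1 in 20; the gap to the nearest library is given as a share of the whole range. For Ces1d it was cKO library 1, whose 4.21 CPM fell short of the 9.37 to 9.69 CPM of its group (gap 0.942). For Ces2e it was WT library 3, whose 990 CPM exceeded the 575 to 617 CPM of its group (gap 0.900). The Ces2 sum of that library, 1600 CPM, exceeded 839 to 966 CPM (gap 0.834). Naaa had 30.4 CPM in cKO library 3 where its group had 32.7 to 33.1 CPM (gap 0.862). Nr3c1 stood out in both groups, with 267 CPM in WT library 3 where its group had 218 to 222 CPM (gap 0.909) and 132 CPM in cKO library 3 where its group had 204 to 219 CPM (gap 0.831). D130043K22Rik had 15.4 CPM in WT library 4 where each other WT library had 17.4 CPM (gap 0.977).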

How the results depend on the processing

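Of 263 alternative values of the 14 tested carboxylesterase loci, 241 kept their direction and their side of the threshold, 10 kept direction but lost the call, all for Ces1f, and 12 changed sign. Ces1f was not called with the replicate number as a block (log2 fold change -1.23, edgeR adjusted p = 0.302), where 0 genes passed (554 with p under 0.05 in edgeR), or by limma on FPKM in 3 settings, where 0 genes passed (568, 1102 and 1133 with p under 0.05). Its adjusted p over all alternatives ran from 1.09e-09 with DESeq2 to 0.302. Whether the replicate numbers pair the libraries is not settled: the deviations of same-numbered libraries correlated at -0.108, 0.108, 0.152 and 0.138, so 3 of 4 pairs but not all exceeded 0.1. Differently numbered libraries ran from -0.195 (WT library 2 with cKO library 3) to 0.148 (WT library 1 with cKO library 2). Above 0.1 among them was also WT library 2 with cKO library 1, at 0.123. Leaving out 1 library gave 0 to 3 genes called in edgeR, 0 to 1 of them a carboxylesterase, against 2 and 1, and 0 without WT library 1, 2 or 3 (529, 424 and 648 with p under 0.05). The count of genes was 10 without a filter, 37 by DESeq2 and 4 without libraries 3 of both groups. The Ces1 sum had a log2 ratio of -0.97, -0.59 without Ces1f (chosen after seeing the data), and -1.09 to -0.88 without 1 library. The Ces2 sum ran from 0.14 to 0.50 without 1 library, and was 0.47 without libraries 3 of both groups. Without 1 library Ces2b ran from -0.13 to 0.54, Ces3a from -0.18 to 0.22, Ces2d-ps from -0.44 to 0.21 and Ces2h from -0.43 to 0.16. The sign turned for Ces2b at -0.13 and -0.046 without WT library 1 or 2, and for Ces3a at -0.078, -0.014 and -0.18 without WT library 1 or 2 or cKO library 2. It turned for Ces2d-ps at 0.21, 0.056 and 0.010 without WT library 3 or cKO library 1 or 4. Ces2h was at 0.16 and 0.027 without WT library 3 or cKO library 2, at 0.19 without both libraries 3 and at 0.033 with sample quality weights. The cause of these changes was not tested. At the depth of these libraries, loci under about 2 CPM rest on few counts.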
